A study of Mus musculus with 6 samples.

Results

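The E proteins *Tcf3*, *Tcf12* and *Tcf4* and their inhibitors *Id1*, *Id2* and *Id3* were followed in RNA-sequencing of mouse acute myeloid leukemia with and without *Phf6*, which encodes a chromatin-associated plant homeodomain finger protein. The 6 members were taken by gene symbol from a table of 54532 genes. GFP+ cells were sorted from the bone marrow of mice that carried a leukemia driven by RUNX1-ETO9a (RE9a), a truncated form of the t(8;21) fusion protein, which both groups share and which entered fetal liver cells lacking lineage markers on a retrovirus with GFP. In *VC Phf6,RE9a* cells (3 libraries, replicates 11, 12 and 13), the donors were *Vav1-Cre;Phf6 fl/y* males, in which Cre under the blood cell promoter *Vav1* removes the floxed *Phf6* on the single X chromosome. In *WT Phf6,RE9a* cells (3 libraries, replicates 1, 2 and 3), the donors were *Phf6 fl/y* males without Cre. The leukemias were kept by serial transplantation. The labels give no age. Whether the libraries within a group came from separate leukemias is not stated, so the p-values measure the spread between these libraries, which may in part be technical.

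E proteins are basic helix-loop-helix (bHLH) transcription factors present in most cell types. As homodimers, or as heterodimers with tissue-restricted bHLH partners such as TAL1 and LYL1, they bind the DNA word CANNTG, the E-box, and recruit coactivators such as p300. Id proteins have the helix-loop-helix but no basic region, so a dimer of an Id protein and an E protein does not bind the E-box. In blood, E proteins drive lymphoid differentiation and restrain progenitor growth, and Id proteins oppose them. RUNX1-ETO binds E proteins through its ETO part, and it works in a complex with RUNX1, CBFB, LYL1, LMO2 and LDB1.

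In *VC Phf6,RE9a* cells the E proteins moved apart and the main Id gene fell. *Tcf4* rose 32.6-fold from a very low level, *Tcf3* rose 1.37-fold, *Tcf12* fell to 0.619 of its *WT Phf6,RE9a* level and *Id2* was 5.98-fold lower, whereas *Id1* and *Id3* did not pass the test. Thus 4 of the 6 members passed (2 higher and 2 lower), in a comparison in which 44.2% of the 14169 genes tested passed, 21.5% higher and 22.7% lower. The test was edgeR's quasi-likelihood test on counts, adjusted over all genes tested by the Benjamini-Hochberg method, with a threshold of 0.05. Levels are given as counts, as CPM, the share of a library's total count scaled to the same total in every library, or as FPKM, which also divides by gene length. CPM levels leave out the scaling factors of the test (TMM), which were 0.917 to 0.991 in *WT Phf6,RE9a* and 1.04 to 1.07 in *VC Phf6,RE9a* libraries. Beside the tested fold changes, differences in CPM are therefore shifted toward higher *VC Phf6,RE9a* levels. All 6 members passed the filter on low counts. *Tcf4* and *Id3* had 8 and 9 counts in *WT Phf6,RE9a* replicate 2 and needed *VC Phf6,RE9a* libraries to pass it. For *Tcf4*, these are the libraries in which it was high.

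The total count per library ran from 15675358 to 16817994, and the limit set by 0 counts (3 counts) was 0.191 CPM or less in every library. Such limits cover counting error only. *Phf6* had 1044, 827 and 1142 counts in *WT Phf6,RE9a* replicates 1, 2 and 3 and 388, 314 and 331 counts in *VC Phf6,RE9a* replicates 11, 12 and 13, so the groups did not overlap, in the direction that the labels give (log2 fold change -1.66, SE 0.13, edgeR adjusted p = 9.32e-05). Of the markers of the labelled blasts, *Kit* and *Cd34* were lower in *VC Phf6,RE9a* cells, *Itgam*, *Mpo* and *Runx1t1* were higher, and *Ptprc* did not pass. RE9a itself carries RUNX1 and RUNX1T1 sequence, and reads of the transgene and of the mouse genes *Runx1* and *Runx1t1* could not be told apart. As these are bulk samples, fewer cells of a type and less RNA per cell cannot be told apart either.

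Sequence before a RefSeq start of 3 members that passed the test is shown because their products bind the E-box or, for *Id2*, oppose that binding. Promoters were taken from RefSeq (GRCm38.p6) and cut to the bases before the start that lie outside annotated exons. A promoter was found for 4 of the 6 members, of which *Id3* had no such stretch. All 3 genes lie on the minus strand, the stretches read 5′ to 3′, and capitals mark the E-box (CANNTG, which reads as CANNTG on either strand). The *Tcf3* stretch is chr10:80433648-80433885, from 250 to 13 bases before the start. The *Tcf12* stretch is chr9:72111872-72112069, from 250 to 53 bases before the more upstream of its starts, and the *Id2* stretch is chr12:25096254-25096342, from 250 to 162 bases before the start. The RefSeq start of *Id2* lies within the gene as the table bounds it, so that this stretch is intronic in the longest annotated transcript and is not sequence upstream of the gene.
Tcf3: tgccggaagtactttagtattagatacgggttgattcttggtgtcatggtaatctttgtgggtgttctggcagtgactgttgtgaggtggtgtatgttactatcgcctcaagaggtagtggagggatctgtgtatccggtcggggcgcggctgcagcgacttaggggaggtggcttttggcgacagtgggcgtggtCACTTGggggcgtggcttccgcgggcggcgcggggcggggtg
Tcf12: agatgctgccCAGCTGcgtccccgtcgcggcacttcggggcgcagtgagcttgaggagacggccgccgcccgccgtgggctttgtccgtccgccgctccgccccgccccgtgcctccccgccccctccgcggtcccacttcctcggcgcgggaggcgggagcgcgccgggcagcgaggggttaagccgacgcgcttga
Id2: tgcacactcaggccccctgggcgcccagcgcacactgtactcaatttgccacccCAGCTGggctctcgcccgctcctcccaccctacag
Each stretch held 1 E-box. In the same windows, 64.7%, 58.7% and 33.0% of all 32851 RefSeq promoters held CANNTG for *Tcf3*, *Tcf12* and *Id2*, respectively. The E-box of *Tcf12* and that of *Id2* were both the palindrome CAGCTG, which 10.2% and 4.23% of promoters held in the respective windows. A further start of *Tcf12* lies within the gene, and its stretch (chr9:72111203-72111451, not printed) held 1 E-box, CAAGTG, and no CAGCTG. Neither CACCTG nor the RUNX word TGTGGT was found on either strand of any of these stretches. These letters are a description of the sequence and not of binding.

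*Tcf3* encodes E2A, the E protein whose E12 and E47 forms differ by splicing and are not resolved by gene counts. It lies at chr10:80409514-80433647 on the minus strand (GRCm38). *Tcf3* had 2660, 2625 and 3080 counts in *WT Phf6,RE9a* and 4159, 4327 and 3974 counts in *VC Phf6,RE9a* libraries. Every *VC Phf6,RE9a* library was above every *WT Phf6,RE9a* library, and the spread within each group was small beside the gap, with 170 ± 13.4 CPM (SD, n = 3) against 257 ± 10.7 CPM (SD, n = 3). In FPKM the gap was narrower, with 44.0 ± 1.48 against 59.8 ± 2.30 (SD, n = 3), and the groups did not overlap either. The log2 fold change was 0.45 (SE 0.077, 95% interval 0.27 to 0.63, edgeR adjusted p = 0.00283).

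*Tcf12* encodes HEB, the E protein known best from T cell development. It lies at chr9:71842688-72111871 on the minus strand and moved against *Tcf3*. *Tcf12* had 2011, 1685 and 1842 counts in *WT Phf6,RE9a* and 1219, 1190 and 1334 counts in *VC Phf6,RE9a* libraries, again without overlap. Mean *Tcf12* was 112 ± 6.31 CPM (SD, n = 3) in *WT Phf6,RE9a* and 77.3 ± 5.12 CPM (SD, n = 3) in *VC Phf6,RE9a* cells. The log2 fold change was -0.69 (SE 0.096, 95% interval -0.92 to -0.47, edgeR adjusted p = 0.00108). The table has 11 other gene models within the span of *Tcf12*, whose summed counts came to at most 5.82% of those of *Tcf12* in any library.

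*Tcf4* encodes E2-2, the E protein that plasmacytoid dendritic cells require. It lies at chr18:69343356-69689079 on the plus strand. Like the other members it was taken by its symbol, and its row carries the Ensembl identifier ENSMUSG00000053477. *Tcf7l2*, which has also been called Tcf4, is a different gene. *Tcf4* had 11, 8 and 39 counts in *WT Phf6,RE9a* libraries, where replicate 3 stood above the others, and 732, 550 and 769 counts in *VC Phf6,RE9a* libraries. The mean was 1.17 ± 1.02 CPM (SD, n = 3) against 42.3 ± 7.23 CPM (SD, n = 3), and the lowest *VC Phf6,RE9a* library was at 34.2 CPM when the highest *WT Phf6,RE9a* library was at 2.34 CPM. The log2 fold change was 5.03 (SE 0.45, 95% interval 3.99 to 6.07, edgeR adjusted p = 0.000158). Without *WT Phf6,RE9a* replicate 3, the log2 fold change was 5.97. By absolute log2 fold change, *Tcf4* ranked 225 among the 14169 genes tested. It entered the test through the *VC Phf6,RE9a* libraries, so its fold change and rank rest on few *WT Phf6,RE9a* counts.

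**Figure D1:**
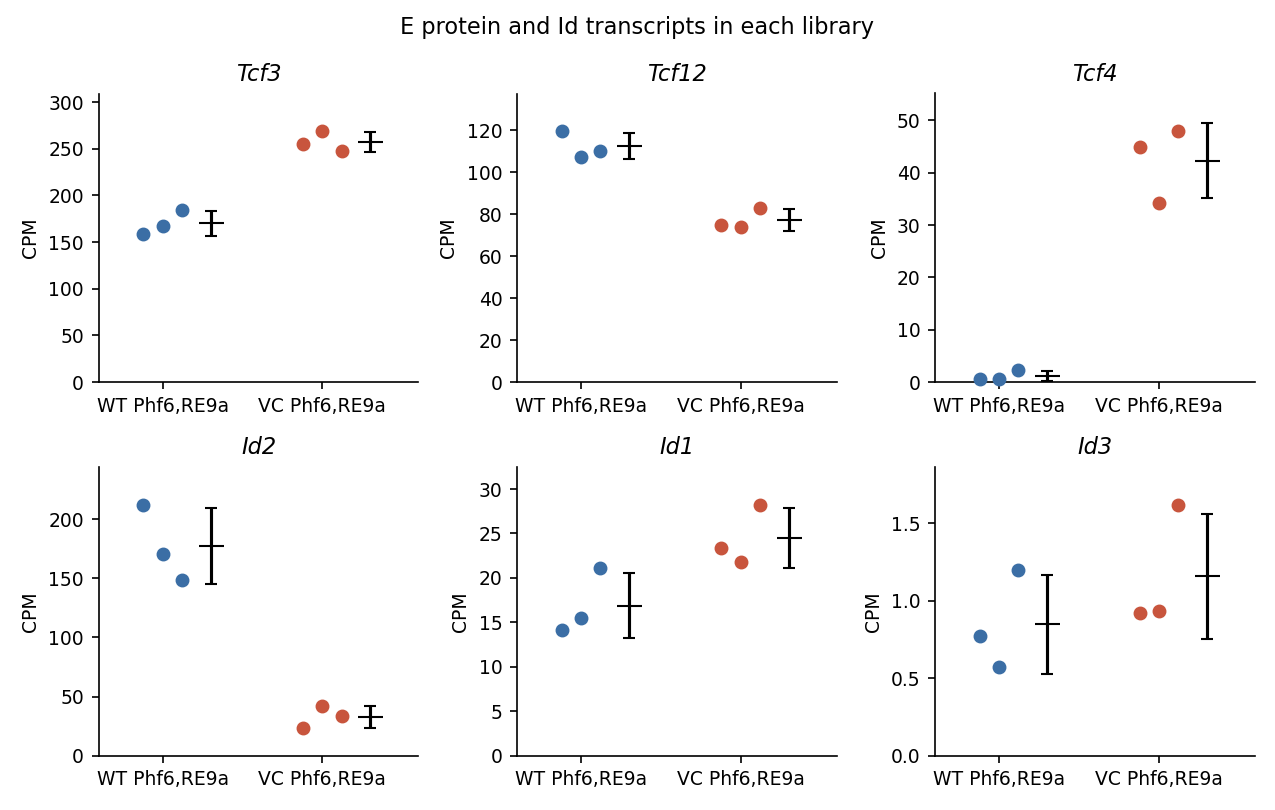
Level of each member (CPM, linear axis from 0, scaled per panel) in the 3 *WT Phf6,RE9a* libraries (blue) and the 3 *VC Phf6,RE9a* libraries (red), with the mean and SD of each group in black. On this scale the groups overlapped for *Id3*; in FPKM those of *Id1* overlapped too.

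*Id2* was the most abundant Id gene in *WT Phf6,RE9a* cells. Its product inhibits E proteins, and natural killer and other innate lymphoid cells require it. *Id2* lies at chr12:25093799-25097140 on the minus strand, and had 3572, 2676 and 2486 counts in *WT Phf6,RE9a* and 384, 677 and 541 counts in *VC Phf6,RE9a* libraries. The highest *VC Phf6,RE9a* library lay far below the lowest *WT Phf6,RE9a* library, at 42.1 CPM against 149 CPM. Mean *Id2* fell from 177 ± 32.2 CPM (SD, n = 3) to 33.1 ± 9.28 CPM (SD, n = 3), with a log2 fold change of -2.58 (SE 0.23, 95% interval -3.12 to -2.04, edgeR adjusted p = 0.000162).

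*Id1*, a target of BMP signaling in many cells, did not follow *Id2*. *Id1* lies at chr2:152736251-152737410 on the plus strand, and had 238, 242 and 352 counts in *WT Phf6,RE9a* and 381, 351 and 453 counts in *VC Phf6,RE9a* libraries. In CPM, its groups did not overlap (14.2, 15.4 and 21.1 against 23.4, 21.8 and 28.2), as was the case for 59.3% of all genes tested. In FPKM, which the authors scaled by size factors, the groups overlapped, with 18.2 in *WT Phf6,RE9a* replicate 3 and 17.5 in *VC Phf6,RE9a* replicate 12. The log2 fold change was 0.39 (SE 0.17, 95% interval -0.0055 to 0.79, edgeR adjusted p = 0.0998), which missed the threshold. Without *WT Phf6,RE9a* replicate 3, the highest library of its group, *Id1* passed (log2 fold change 0.54, edgeR adjusted p = 0.0353).

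*Id3*, at chr4:136143497-136145755 on the plus strand, was read at the edge of detection. *Id3* had 13, 9 and 20 counts in *WT Phf6,RE9a* and 15, 15 and 26 counts in *VC Phf6,RE9a* libraries, and the groups overlapped. The log2 fold change was 0.30 with a 95% interval from -0.65 to 1.24 (edgeR adjusted p = 0.585), so that changes of this width in either direction were not detectable at this depth. The remaining family member, *Id4*, had 1 count in all 6 libraries together and was not tested.

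Levels of the members can be ranked only per length, for which the deposited FPKM values were used. In *WT Phf6,RE9a* cells, mean FPKM was highest for *Id2* (76.7 ± 17.2, SD, n = 3), followed by *Tcf3* (44.0 ± 1.48), *Id1* (15.2 ± 2.62), *Tcf12* (7.60 ± 0.702), *Id3* (0.493 ± 0.166) and *Tcf4* (0.0437 ± 0.0362). In *VC Phf6,RE9a* cells, the order was *Tcf3* (59.8 ± 2.30), *Id1* (19.8 ± 2.70), *Id2* (12.7 ± 3.45), *Tcf12* (4.67 ± 0.301), *Tcf4* (1.45 ± 0.255) and *Id3* (0.606 ± 0.208). No neighbours in either order overlapped between libraries on this scale. The order depends on the length used, since the table counts every base that is an exon in any transcript, which is 27382 bases for *Tcf4* and 15529 for *Tcf12*, while their longest coding transcripts have 8577 and 6299 bases. With the longest coding transcript as length, *Tcf12* (18.9) stood above *Id1* (15.3) in *WT Phf6,RE9a* cells and the libraries of these genes overlapped. In *VC Phf6,RE9a* cells, *Tcf4* then came to 4.70 and kept its place, and the libraries of *Id2* overlapped with those of both *Id1* (mean 20.1) and *Tcf12* (mean 11.7).

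The sum over the 3 Id genes and the sum over the 3 E protein genes changed places. Summed Id FPKM was 92.3 ± 14.9 (SD, n = 3) in *WT Phf6,RE9a* and 33.1 ± 3.96 (SD, n = 3) in *VC Phf6,RE9a* cells, and summed E protein FPKM was 51.7 ± 0.995 and 65.9 ± 1.78, respectively. The ratio of Id to E protein FPKM was 2.13, 1.73 and 1.51 in the *WT Phf6,RE9a* libraries and 0.436, 0.504 and 0.571 in the *VC Phf6,RE9a* libraries. Every *WT Phf6,RE9a* library thus held more Id than E protein transcript per length, and every *VC Phf6,RE9a* library less. The mean log2 ratio differed by -1.82 between the groups, which is a description of transcripts and was given no test. On CPM, which ignores length, the ratio was below 1 in both groups (0.690 and 0.156).

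Within the families, the make-up shifted as well. *Id2* made up 82.5% ± 5.56 (SD, n = 3) of Id FPKM in *WT Phf6,RE9a* and 38.1% ± 8.02 (SD, n = 3) in *VC Phf6,RE9a* cells, and *Id1* made up 17.0% ± 5.33 and 60.0% ± 7.77. *Tcf3* was the main E protein transcript in both groups, with 85.2% ± 1.49 and 90.7% ± 1.05 of E protein FPKM. *Tcf12* went from 14.7% ± 1.54 to 7.10% ± 0.652, and *Tcf4* from 0.0836% ± 0.0676 to 2.21% ± 0.437, so that *Tcf4* stayed the smallest E protein transcript despite the largest fold change.

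**Figure D2:**
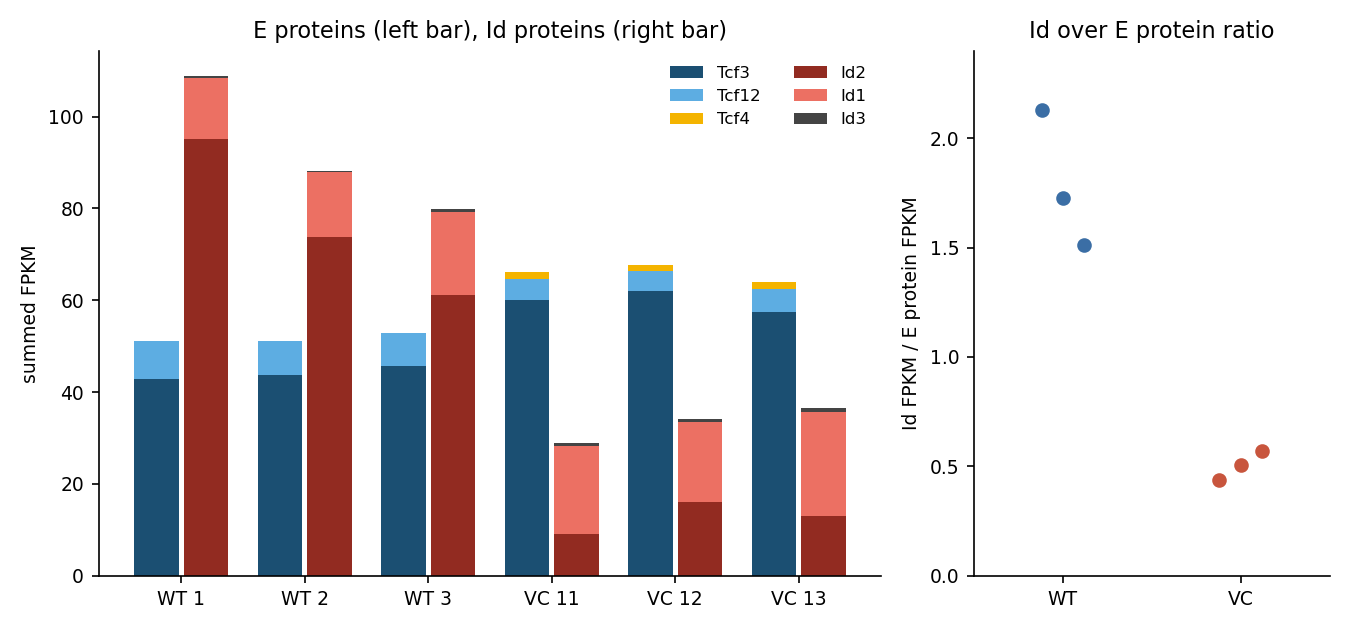
Left, summed FPKM of the E proteins (left bar) and of the Id proteins (right bar) in each library, stacked by gene. Right, the ratio of the sums in each library, which lay between 1.51 and 2.13 in *WT Phf6,RE9a* (blue) and between 0.436 and 0.571 in *VC Phf6,RE9a* libraries (red).

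Transcripts that serve as markers of other cell types moved with the members. Whether leukemia cells or other cells within the sort made them cannot be told from these libraries. Summed CPM of 8 B cell markers, a lineage in which *Tcf4* is expressed, was 4.16, 6.89 and 10.1 in *WT Phf6,RE9a* replicates 1, 2 and 3 and 75.9, 78.7 and 27.6 in *VC Phf6,RE9a* replicates 11, 12 and 13. Within *VC Phf6,RE9a*, replicate 13 had the lowest B cell sum and the highest *Tcf4* (47.9 CPM), and within *WT Phf6,RE9a*, replicate 3 had the highest of both. Of the B cell markers, 5 of the 6 tested were higher, where 21.5% of all genes tested were higher and 22.7% lower. *Siglech*, a defining marker of plasmacytoid dendritic cells, had 2, 2 and 14 counts against 49, 22 and 10 counts and did not pass. It is 1 of 14 tested genes linked to *Tcf4* in these cells, of which 5 were higher, 4 lower and 5 did not pass. *Id2* fell together with 9 of 10 mast cell and basophil markers, whose summed CPM ranged from 21974 to 33380 in *WT Phf6,RE9a* and from 7372 to 8194 in *VC Phf6,RE9a* libraries. All 11 neutrophil markers were higher (172 to 572 against 1164 to 4135 summed CPM), as were 9 of 10 erythroid markers (1659 to 2399 against 5508 to 6285). T cell markers stayed at or below 2.82 summed CPM in the *WT Phf6,RE9a* libraries and at or above 8.23 in the others, with 1 of the 2 tested higher. Macrophage markers summed to 29.8 to 42.8 against 59.1 to 73.6 CPM, with 2 of the 8 tested higher. Megakaryocyte markers summed to 166 to 269 against 17.6 to 18.6 CPM, with 1 of the 3 tested higher and 1 lower. The part of such cells, if present, in the changes of the members was not tested.

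The 5 genes of the RUNX1-ETO complex named above and *Tal1*, which encodes a bHLH partner of E proteins, also moved in both directions. Of these 6 genes, 2 were higher and 2 lower (66.7% called, against 44.2% of all genes tested). Their median log2 fold change was -0.25, against 0.013 for all genes tested. *Lmo2*, the adaptor that joins bHLH dimers to LDB1, rose most. *Lmo2* had 1122, 1352 and 1760 counts in *WT Phf6,RE9a* and 5271, 6050 and 5602 counts in *VC Phf6,RE9a* libraries (log2 fold change 1.88, SE 0.14, edgeR adjusted p = 8.62e-05). *Ldb1*, which links such complexes to each other, rose without overlap (log2 fold change 0.46, edgeR adjusted p = 0.0034). *Cbfb*, the partner subunit of RUNX1, fell (log2 fold change -0.52, edgeR adjusted p = 0.005), as did *Lyl1*, a bHLH partner of E proteins (log2 fold change -0.31, edgeR adjusted p = 0.018). The groups of *Lyl1* overlapped in CPM but not in FPKM. *Runx1* (log2 fold change -0.27, edgeR adjusted p = 0.0547) and *Tal1* (log2 fold change -0.23, edgeR adjusted p = 0.0694) missed the threshold.

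**Figure D3:**
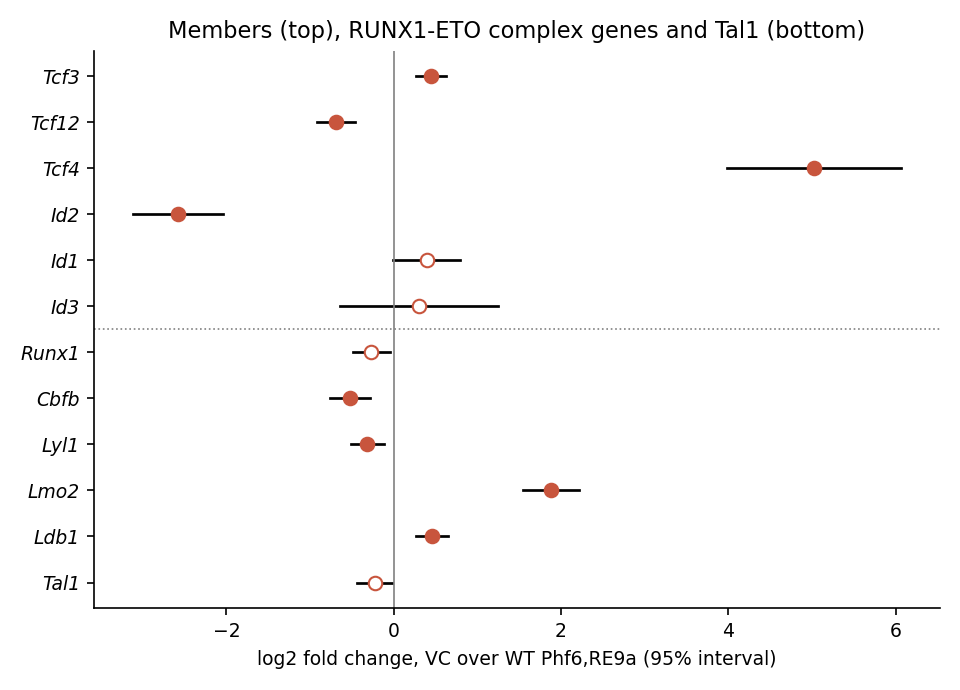
Log2 fold change (VC over WT) with its 95% interval for the 6 members (above the dotted line) and for 5 genes of the RUNX1-ETO complex and *Tal1* (below it). Filled circles passed the threshold of 0.05 after adjustment, and the interval of *Tcf4* (3.99 to 6.07) lies to the right of all others.

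Cofactors of E proteins changed little in size. Of 13 coactivators and corepressors, 4 were higher and 1 lower (38.5% called, against 44.2% of all genes tested). Their median log2 fold change was 0.10, and 3 were called without *VC Phf6,RE9a* replicate 11 and 2 without replicate 12. *Ep300*, the gene for p300, rose (log2 fold change 0.36, edgeR adjusted p = 0.00944) and *Crebbp*, the gene for the related acetyltransferase CBP, fell (log2 fold change -0.44, edgeR adjusted p = 0.0146). *Kat2a*, the GCN5 acetyltransferase, rose by 0.33 on the log2 scale (edgeR adjusted p = 0.0159). *Ncor1*, a corepressor bound by ETO, had a log2 fold change of -0.18 (edgeR adjusted p = 0.147). Of the 28 class II bHLH genes that dimerize with E proteins, 4 were tested. Among these, 1 was higher and 1 lower (50% called, against 44.2% of all genes tested). *Scx* rose from 22, 21 and 27 counts to 84, 44 and 69 counts (edgeR adjusted p = 0.011) and *Lyl1* fell, while 1 gene was called without *VC Phf6,RE9a* replicate 11 and 1 without replicate 12.

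BMP and TGF-β signals are known inducers of Id genes. Of 33 genes of the pathway, 25 were tested, of which 6 were higher and 9 lower (60% called, against 44.2% of all genes tested). Some entered the test through the group in which they were high, and with at least 10 counts required in every library 3 were higher and 8 lower. The ligands moved in both directions: *Bmp2* fell from 3640, 5968 and 5164 counts to 1181, 1143 and 827 counts (log2 fold change -2.36, edgeR adjusted p = 0.000182), and *Tgfb1* fell by 0.52 on the log2 scale (edgeR adjusted p = 0.00448), whereas *Bmp4* rose from 32, 13 and 11 counts to 183, 126 and 300 counts (log2 fold change 3.31, edgeR adjusted p = 0.00164). *Tgfb3* rose from 3, 19 and 5 counts to 62, 72 and 33 counts (edgeR adjusted p = 0.0169). Among receptors, *Eng*, the coreceptor endoglin, rose from 4, 3 and 3 counts to 232, 236 and 268 counts (log2 fold change 6.03, edgeR adjusted p = 1.92e-05). *Eng* and *Tgfb3* entered the test through the *VC Phf6,RE9a* libraries, so the size of their changes rests on few *WT Phf6,RE9a* counts. *Tgfbr1*, *Tgfbr2* and *Bmpr1a* were lower and *Acvrl1* was higher. Among the intracellular genes, *Smad3*, which carries the TGF-β signal, rose (log2 fold change 1.03, edgeR adjusted p = 0.000145), and *Smurf1*, a ubiquitin ligase for SMAD proteins, fell (log2 fold change -1.99, edgeR adjusted p = 0.000118). *Smad6* was also higher, and *Smad2*, *Smad4* and *Smad7* were lower. *Smad1* and *Smad5*, which carry the BMP signal, did not pass, with log2 fold changes of 0.074 and -0.13.

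Genes that E proteins are known to activate in lymphoid cells were nearly all close to the floor in *WT Phf6,RE9a* cells. Of 21 such genes, 10 were not tested for low counts. The other 11 comprised 8 that were higher, 1 that was lower and 2 that did not pass, but none of the 8 had more than 11 counts in a *WT Phf6,RE9a* library, so that these genes entered the test through the *VC Phf6,RE9a* libraries and their number is no measure of the list. *Rag1*, a subunit of the antigen receptor recombinase, had 0, 0 and 2 counts in *WT Phf6,RE9a* and 128, 137 and 54 counts in *VC Phf6,RE9a* libraries, a ratio of 162 with a 95% counting interval from 44.5 to 1343. *Blnk*, an adaptor of the B cell receptor, had 1, 2 and 1 counts against 73, 49 and 80 counts, a ratio of 51.3 (19.7 to 190.0). *Hes1*, a Notch target, was abundant and fell from 5305, 5838 and 2926 counts to 675, 760 and 693 counts (log2 fold change -2.87, edgeR adjusted p = 0.000227). *Notch1* did not pass (log2 fold change 0.46, edgeR adjusted p = 0.505). With at least 10 counts required in every library, *Hes1* was the 1 gene of the list that was called. *Rag1* followed the B cell sum in *VC Phf6,RE9a* replicate 13 and *Blnk* did not. The part of B cells, if present, in these values was not tested.

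CDK inhibitors are genes by which E proteins slow the cell cycle. Of 6 tested, 2 were higher and 2 lower (66.7% called, against 44.2% of all genes tested). With at least 10 counts in every library, 1 was higher and 2 lower. *Cdkn1a*, the gene for p21, fell from 15374, 9766 and 8795 counts to 2250, 1405 and 1279 counts (log2 fold change -2.92, edgeR adjusted p = 0.000281). *Cdkn2c*, the gene for p18, rose by 0.66 on the log2 scale (edgeR adjusted p = 0.00493). *Cdkn2a* fell from 440, 89 and 134 counts to 43, 43 and 36 counts (edgeR adjusted p = 0.00978), where *WT Phf6,RE9a* replicate 1 stood apart. *Cdkn1b*, the gene for p27, did not pass (log2 fold change -0.10, edgeR adjusted p = 0.45).

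Genes linked to *Tcf4* in plasmacytoid dendritic cells, not all of which lie downstream of it, did not move one way with it. Of 17 genes, 14 were tested, with 5 higher and 4 lower (64.3% called, against 44.2% of all genes tested). With at least 10 counts in every library, 3 were higher and 4 lower. *Spib*, a transcription factor of these cells and of B cells, rose from 3, 2 and 5 counts to 140, 138 and 56 counts (log2 fold change 4.89, edgeR adjusted p = 0.000333). It entered the test through the *VC Phf6,RE9a* libraries, so the size of its change rests on few counts. *Bst2*, a surface protein that interferon also induces, rose by 0.77 on the log2 scale (edgeR adjusted p = 0.00184). *Zeb2*, a repressor with wide myeloid expression, fell (log2 fold change -1.45, edgeR adjusted p = 0.000254), and *Bcl11a*, which acts upstream of *Tcf4* in these cells, did not pass (log2 fold change 0.060, edgeR adjusted p = 0.706).

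Genes of the innate lymphoid and dendritic cells that require *Id2* were mostly too low to test. Of 17, 7 were tested, with 3 higher and 2 lower (71.4% called, against 44.2% of all genes tested). Some entered the test through the group in which they were high. With at least 10 counts in every library, 2 were higher and 1 lower. Without *VC Phf6,RE9a* replicate 11, 3 were called, and 3 without replicate 12. *Gzmb*, the gene for granzyme B, fell from 11050, 2445 and 3080 counts to 26, 15 and 6 counts (log2 fold change -8.58, edgeR adjusted p = 0.000236), and mast cells are known to express it too. *Gata3* rose from 612, 800 and 942 counts to 2882, 2568 and 2945 counts (log2 fold change 1.71, edgeR adjusted p = 0.000132). *Il2rb*, a receptor chain for interleukins, rose from 10, 7 and 10 counts to 60, 49 and 38 counts (edgeR adjusted p = 0.00122).

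**Figure D4:**
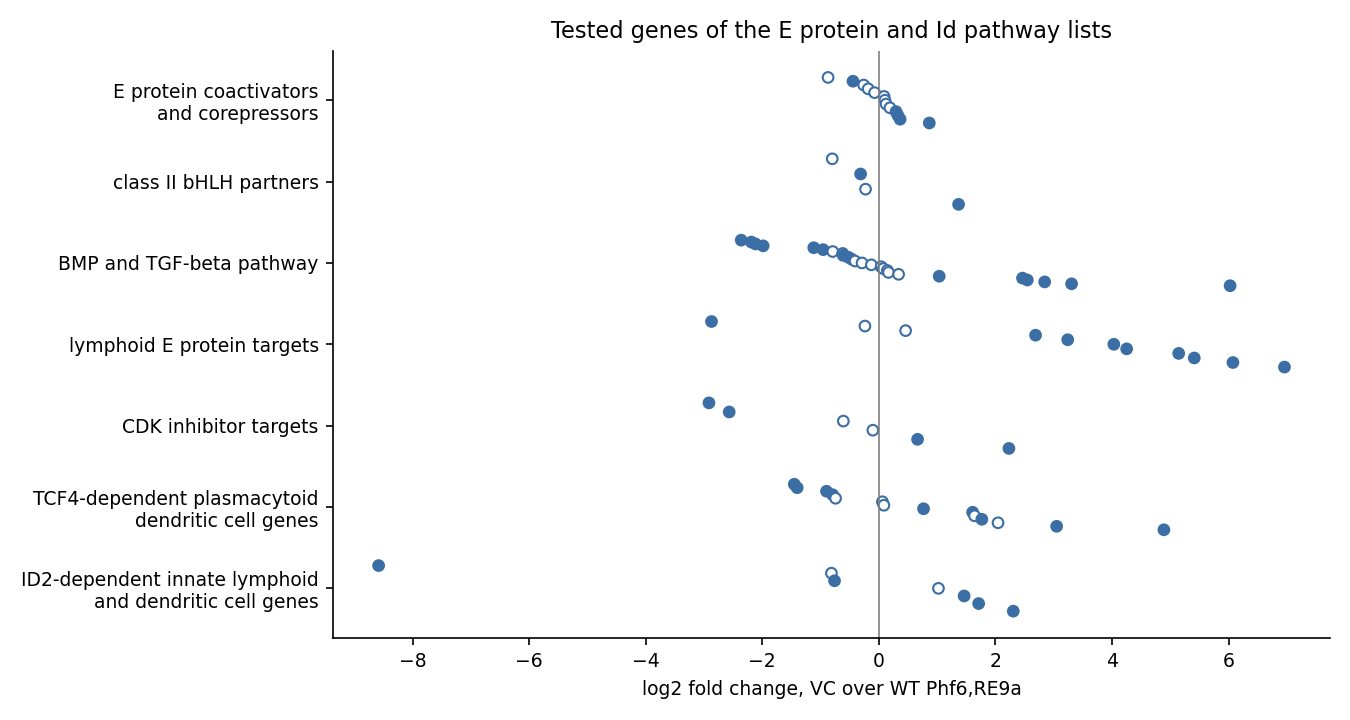
Log2 fold change (VC over WT) for each tested gene of 7 pathway lists, spread vertically by rank within a list. Filled circles passed the threshold of 0.05 after adjustment; each list has filled circles on both sides of 0.

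The genes most like each member that passed were sought by Pearson correlation of log2 CPM over the 6 libraries, among the 11438 genes whose log2 CPM averaged 1 or more. For *Tcf3* these were *Tcf20*, *Rbm38* and *Ncaph2*, and for *Tcf12* they were *Manba*, *Acap1* and *Meis2*. For *Tcf4* they were *Btc*, *Rnf222* and *Chrm1*, and for *Id2* they were *Chpt1*, *Gpsm1* and *Tcea2*. Every one of these correlations was at least 0.997. The 6 libraries form 2 groups, so a gene with a steady difference between the groups scores high, and 7.43% to 8.77% of the genes exceeded 0.95 with a given member. These correlations are a description of the libraries. The *Btc* counts followed those of *Tcf4* in scale too, with 4, 2 and 12 counts in *WT Phf6,RE9a* and 213, 166 and 188 counts in *VC Phf6,RE9a* libraries, whereas *Rnf222* rose from 72, 63 and 110 counts to 242, 245 and 253 counts.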

How the data were processed

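Total RNA of sorted GFP+ cells had been sequenced as paired reads by the authors. The deposited table holds read counts per gene, not normalized. It also holds FPKM values that the authors computed from these counts, and the authors' own comparison (DESeq2's p-values, log2 fold changes and normalized mean counts, a signal), which was not used. The submitters' processing notes name Bowtie 0.12.0 and mm8 without giving their role; the annotation used for counting and the strand setting are not given in the sources used here. Of the 54532 genes, 54409 were found by identifier in GENCODE M21, where 98.3% have identical boundaries. Coordinates are therefore those of GRCm38 and not of mm8. Without strand, reads of overlapping genes cannot be told apart.

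Counts were compared in R 4.3.3 with edgeR 4.0.16 (filterByExpr, TMM, glmQLFit and glmQLFTest, 2-sided, Benjamini-Hochberg adjustment, threshold 0.05), fitted on all 6 libraries without covariates. The log2 CPM of the correlations used a prior count of 2 and, unlike the CPM levels, the TMM factors. Pairs of libraries within a group differed beyond sampling noise (chi-square 11.8 to 46.4 per gene), so none was merged. With 3 libraries a group, an exact permutation test cannot go below p = 0.1 and was not used. The interval of a ratio of low counts is exact (Clopper-Pearson, 95%). Figures were drawn with matplotlib. The script was tested on simulated data.

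The members, the gene lists and the tests were chosen with earlier results of these data known. Genes named are all members and *Phf6*, the RUNX1-ETO complex genes and *Tal1*, in each other list the 3 tested genes with the smallest p and the 2 with the highest mean CPM, and the 3 genes most correlated with each member that passed; *Id4*, *Siglech*, *Bmp4*, *Tgfb3*, the blast markers, *Tgfbr1*, *Tgfbr2*, *Bmpr1a*, *Acvrl1*, *Smad1*, *Smad2*, *Smad4*, *Smad5*, *Smad6* and *Smad7* were named after their values were seen. Alternatives tried were upper quartile scaling or RLE size factors, DESeq2 1.42.0, a filter of 10 or more counts in each library or no filter, limma 3.58.1 on log2(FPKM + 1) or log2(FPKM + 0.1), and each library left out in turn. The length of the longest coding transcript was added after the values were seen.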

Additional observations from a re-analysis of the deposited data

How the results depend on the processing

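*Tcf3*, *Tcf12* and *Id2* kept their direction and their side of the threshold under all 13 alternatives, and *Tcf4* under the 12 that tested it; *Tcf4* and *Id3* could not be tested with at least 10 counts in every library. The log2 fold change of *Tcf4* ranged from 1.23 with limma on log2(FPKM + 1) to 5.97 without *WT Phf6,RE9a* replicate 3. *Id1* passed without *WT Phf6,RE9a* replicate 3 (0.54, edgeR adjusted p = 0.0353; range when 1 library was left out, 0.27 to 0.54; adjusted p from 0.0353 to 0.308 over all alternatives), and *Id3* reversed to -0.023 without *VC Phf6,RE9a* replicate 13 (edgeR adjusted p = 0.974; range -0.023 to 0.58). The Id to E protein difference was -2.15 on CPM and -1.94 to -1.69 with 1 library left out. With at least 10 counts in every library, the genes called fell from 9 to 1 among lymphoid targets, from 5 to 3 among *Id2*-dependent genes and from 15 to 11 in the BMP and TGF-β pathway, and limma gave 3 of the *Id2*-dependent genes with either pseudocount. With 1 library left out, calls ranged from 3 to 5 among *Id2*-dependent genes, from 2 to 7 among cofactors and from 1 to 3 among class II partners. The cause of these changes was not tested. Low counts limit *Id3* and most lymphoid genes. No paired analysis was possible because the groups share no replicate number.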
